A study of Mus musculus with 8 samples.

Results

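The genes described here are 10 members of the Wnt pathway, taken by symbol from the 24047 rows of a gene count table: the secreted antagonists Sfrp1, Sfrp5 and Wif1, the Dickkopf family member Dkk3, the ligands Wnt7a and Wnt7b, the scaffold Apc, the transcription factors Tcf7l2 and Lef1, and the feedback gene Axin2. RNA was sequenced from tdTomato-positive cells sorted as astrocytes out of the mouse somatosensory cortex. The 4 WT samples came from mice of the line Glast-CreERT2; Ai14 and the 4 Ptch1cKO samples from Glast-CreERT2; Ptch1fl/fl; Ai14, in which both copies of the Hedgehog receptor Ptch1 can be deleted. Both groups therefore carried the inducible Cre and the reporter, both received tamoxifen on postnatal days 12 to 14, and both were collected on postnatal days 23 to 25. The Glast promoter is active in astrocytes and in glia-like progenitors, and a sorted cell is one in which Cre acted on the reporter, which does not show that Ptch1 was deleted in the same cell. Nothing in the labels ties a library to its own animal, and p-values here speak only of the spread between these samples, which may be technical.

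Wnt proteins are secreted lipid-modified ligands that bind Frizzled receptors and the co-receptors Lrp5 and Lrp6. Without ligand, a complex built on Axin and Apc marks beta-catenin for destruction, and with ligand beta-catenin accumulates and turns on genes together with factors of the TCF and LEF family. Axin2 and Lef1 are among the genes it turns on, and Axin2 feeds back as a scaffold of the destruction complex. In the brain, Wnt7a and Wnt7b made by neural and glial cells act on endothelial cells to build vessels and the blood-brain barrier.

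Libraries held 4061274 to 7206462 counts, and 10954 genes had enough counts to be tested. The targeted gene Ptch1 had 285, 227, 491 and 425 CPM (reads scaled to a common library size, corrected with TMM factors) in WT replicates 1 to 4. In Ptch1cKO replicates 1 to 4 it had 219, 249, 168 and 258 CPM. These ranges overlap (log2 fold change -0.67, SE 0.22, edgeR adjusted p = 0.349, and 0.00235 with no count filter). With no count filter the SE was 0.15, and p-values of that fit match a normal curve. A gene's own spread between libraries then has almost no part in its p-value. A read from any exon of Ptch1 adds to its count, also in a transcript that lacks the deleted exons. Markers of astrocytes were abundant, with a summed level of 13218 to 18950 TPM (the authors' values, scaled for transcript length and library) in WT and 10665 to 17438 TPM in Ptch1cKO over 10 of 10 listed genes. Aldoc (7505 to 10400 TPM in WT, 6749 to 10251 TPM in Ptch1cKO) and Slc1a2 (3252 to 5195 and 1822 to 5259 TPM) made up most of that sum. Aldh1l1 had 79.8 to 146 TPM in WT and 80.2 to 144 TPM in Ptch1cKO. Transcripts of other cells were present as well. The 8 neuronal markers summed to 4552 to 6492 TPM in WT and 4251 to 5063 TPM in Ptch1cKO, and the 8 oligodendrocyte markers to 7095 to 14235 TPM and 8619 to 11373 TPM. The 8 microglial markers summed to 201 to 436 TPM in WT and 242 to 582 TPM in Ptch1cKO. The 8 endothelial markers were low. They summed to 32.1 to 40.7 TPM in WT and 14.8 to 31.7 TPM in Ptch1cKO, and these groups did not overlap. Of the 8 markers, Cldn5, Pecam1, Cdh5 and Ly6c1 stayed under 1 TPM in each of the 8 libraries. Flt1 reached 2.52 TPM in WT and 2.10 TPM in Ptch1cKO, and Tek 5.25 and 2.98 TPM. Itm2a reached 13.2 and 7.87 TPM, and Slco1c1 36.8 and 21.5 TPM. Xist was counted 1148 and 612 times in WT replicates 2 and 3 and at most 4 times in each other library.

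None of the 8 genes with enough reads for the test was called higher or lower in Ptch1cKO over the whole table. Sfrp5 and Wif1 did not pass the count filter and were not tested. Of the 8 tested genes, 0 passed at 0.05 with edgeR's quasi-likelihood test and p-values adjusted by Benjamini-Hochberg. Of all genes tested, 0.0822% were called higher and 0.0183% lower. DESeq2 also called 0 of the 8. Before adjustment 3 of the 8 had a p under 0.05, against 9.34% of all genes. They were Sfrp1 and Apc, higher in Ptch1cKO as were 4.80% of all genes, and Dkk3, lower as were 4.54%. In bulk RNA, fewer cells of a type and less RNA per cell cannot be told apart. The fold changes of 6 of the 8 were positive and those of 2, Dkk3 and Lef1, negative, and 49.6% of all genes had a positive one. Their median was 0.23 on the log2 scale against -0.0019 for all genes. Dkk3 was the 1 gene of the 8 whose groups did not overlap, with Ptch1cKO the lower, and the groups did not overlap in 5.02% of all genes tested.

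**Figure D1:**
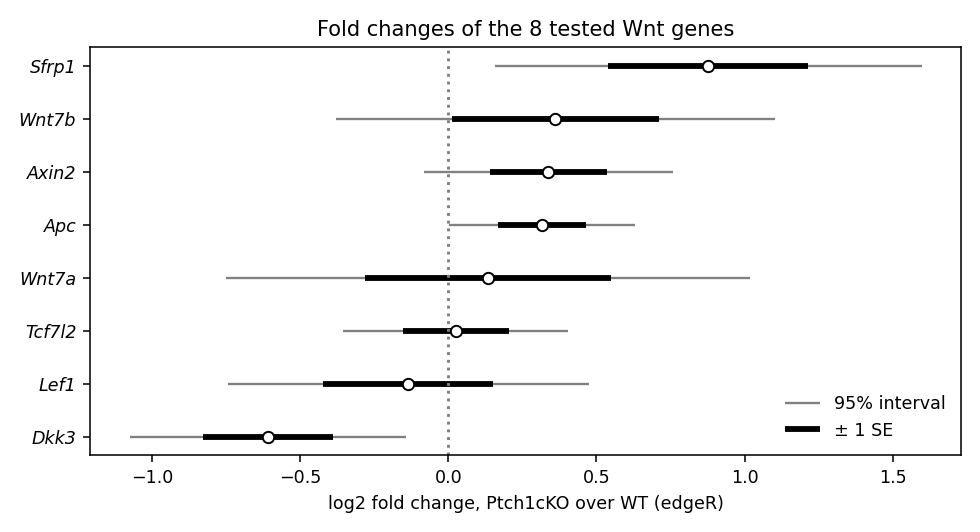
Points show the log2 fold change of Ptch1cKO over WT for the 8 tested genes (x axis), thick bars 1 standard error and thin bars the 95% interval from the edgeR fit with 4 libraries per group. Sfrp1 lies farthest to the right at 0.88 and Dkk3 farthest to the left at -0.61, and the intervals of Wnt7a, Wnt7b, Axin2, Tcf7l2 and Lef1 span 0.

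Levels per transcript length differed far more between the genes than between the genotypes. Apc stood highest, with a mean of 3822 TPM over the 8 libraries, followed by Tcf7l2 with 71.6 TPM, and neither range overlapped that of the next gene. Dkk3 (18.0 TPM), Axin2 (16.5 TPM), Sfrp1 (13.8 TPM) and Lef1 (10.2 TPM) formed a middle group in which neighbours overlapped. Dkk3 exceeded Axin2 in 4 of 8 libraries, Axin2 exceeded Sfrp1 in 6 and Sfrp1 exceeded Lef1 in 5, so the order within this group is not set. Lef1 exceeded Wnt7a (4.30 TPM) and Wnt7a exceeded Wnt7b (2.83 TPM) in 8 of 8 libraries. Wnt7b exceeded Sfrp5 (2.80 TPM) in 5 of 8 libraries. The place of Sfrp5 depends on the group, since its mean was 0.944 TPM in WT (0 to 3.16 TPM over 4 libraries) and 4.65 TPM in the mutant (1.19 to 8.79 TPM), where Wnt7a had a mean of 4.35 TPM and Wnt7b of 3.08 TPM. Wif1 (0.152 TPM) came last. The libraries were enriched by exome capture, so a level also depends on how well the probes caught a gene.

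**Figure D2:**
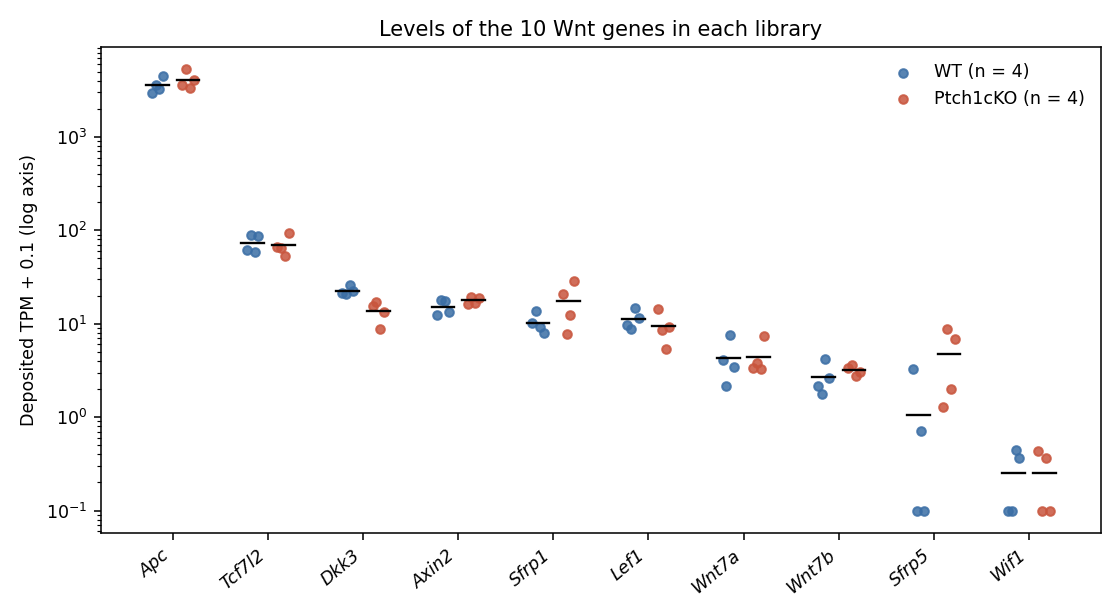
Deposited TPM plus 0.1 on a log axis for the 10 genes, ordered by mean, with 1 point per library and a line at the mean of each group. Apc lies between 2971 and 5281 TPM in the 8 libraries, and the points at the bottom for Sfrp5 and Wif1 are libraries with a value of 0.

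Secreted antagonists came first among the roles. Sfrp1, a secreted Frizzled-related protein that binds Wnt ligands and is also described as a Hedgehog-responsive gene, had 16.5, 21.4, 14.7 and 12.1 CPM in WT replicates 1 to 4. In Ptch1cKO replicates 1 to 4 it had 34.9, 12.7, 22.6 and 48.4 CPM. Ptch1cKO replicates 1, 3 and 4 were above each WT library, whereas Ptch1cKO replicate 2 was below 3 of the 4, so the groups overlapped. Mean CPM was 16.2 ± 3.90 in WT against 29.7 ± 15.5 in the mutant (SD, n = 4). The fold change of 1.84 (95% interval 1.11 to 3.03), or 0.88 on the log2 scale (SE 0.34), did not pass over all genes (edgeR adjusted p = 0.442). Without a filter on low counts Sfrp1 passed, at 0.89 (SE 0.24, edgeR adjusted p = 0.0346), a setting that called 199 genes in all. As said for Ptch1, that p-value hardly weighs the gene's own spread between libraries. In the other alternatives the adjusted p ran from 0.192 to 0.811. The log2 fold change was 0.54 without Ptch1cKO replicate 4 and 1.13 without Ptch1cKO replicate 2. Sfrp1 lies on chromosome 8 of GRCm38 at 23411502 to 23449632, plus strand, and no exon of another gene overlaps its exons.

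Dkk3, a secreted glycoprotein of the Dickkopf family that is not a plain blocker of the co-receptors as Dkk1 is, had the lower values in the mutant. It had 26.2, 24.7, 31.7 and 25.9 CPM in WT replicates 1 to 4 and 19.9, 21.7, 12.1 and 17.2 CPM in Ptch1cKO replicates 1 to 4. Each Ptch1cKO library was below each WT library. The means were 27.1 ± 3.13 and 17.7 ± 4.21 CPM (SD, n = 4), and the log2 fold change of -0.61 (SE 0.22) did not pass over all genes (edgeR adjusted p = 0.411). The 95% interval of the ratio ran from 0.474 to 0.906. In the deposited TPM the groups were also apart, with 20.5 to 26.1 TPM in WT and 8.60 to 17.0 TPM in Ptch1cKO. The summed endothelial markers, which also did not overlap, were lowest in the same library, Ptch1cKO replicate 3, at 14.8 TPM. Most of that sum came from Slco1c1, whose groups overlapped (19.0 to 36.8 TPM in WT, 11.7 to 21.5 TPM in Ptch1cKO), and Cdh5 had 0.0964 to 0.148 TPM in WT and 0.114 to 0.737 TPM in Ptch1cKO. Summed neuronal markers had a median of 5431 TPM in WT and 4720 TPM in Ptch1cKO, and summed astrocyte markers were lowest in that library too, at 10665 TPM. The part of these markers in the Dkk3 values was not tested. Dkk3 lies on chromosome 7 at 112116017 to 112159057, minus strand.

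The summed TPM of 16 listed antagonists includes the membrane-bound Apcdd1. Sfrp1 and Dkk3 together made up 61.3 to 71.3% of it in WT libraries and 49.0 to 71.8% in Ptch1cKO libraries. Within a library their order can be read without scaling between libraries. Dkk3 exceeded Sfrp1 by 1.51 to 2.83 times in each of the 4 WT libraries. In Ptch1cKO replicates 1, 3 and 4 the ratio was 0.745, 0.697 and 0.465, with Sfrp1 the higher gene, and in Ptch1cKO replicate 2 it was 2.24, inside the WT range. This ratio was chosen after the values of both genes were seen and was not tested. The summed level of the 16 antagonists was 46.3 to 51.1 TPM in WT and 42.7 to 61.4 TPM in Ptch1cKO.

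**Figure D3:**
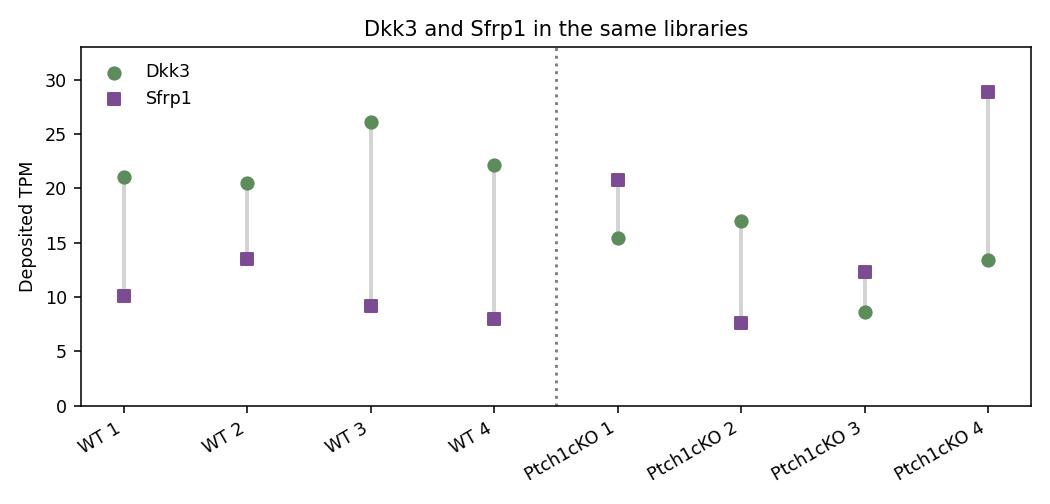
Deposited TPM of Dkk3 (circles) and Sfrp1 (squares) in each of the 8 libraries, joined by a grey line within a library. Dkk3 is the upper point in the 4 WT libraries and in Ptch1cKO replicate 2, and Sfrp1 is the upper point in Ptch1cKO replicates 1, 3 and 4.

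Sfrp5, a close relative of Sfrp1, and Wif1, which binds Wnt ligands through a domain of its own, lay below the count filter. Sfrp5 was counted 13, 0, 3 and 0 times in WT replicates 1 to 4 and 6, 36, 6 and 29 times in Ptch1cKO replicates 1 to 4. Ptch1cKO replicates 2 and 4 were above each WT library, while Ptch1cKO replicates 1 and 3 were below WT replicate 1 once scaled, at 0.852 and 1.48 against 2.19 CPM. Pooled over 4 libraries a group, 16 reads stood against 77, a scaled ratio of 5.11 (95% exact interval 2.95 to 9.38, for counting error only). With no count filter the log2 fold change was 2.32 (SE 0.61) and passed over all genes (edgeR adjusted p = 0.0232). With a filter at a mean of 1 CPM it was again 2.32 (SE 0.93) and did not pass (edgeR adjusted p = 0.458). The call thus depends on the setting, and without a filter the p-value hardly weighs the spread of Sfrp5 between libraries. Wif1 had 3 reads in each group, from libraries with 0, 1 or 2 reads, and a difference in it was not detectable at this depth. Sfrp5 lies on chromosome 19 at 42197971 to 42202252, minus strand, and Wif1 on chromosome 10 at 121033960 to 121100650, plus strand.

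The ligands Wnt7a and Wnt7b showed no difference between genotypes beyond their spread. Wnt7a had 4.71, 2.36, 8.67 and 3.71 CPM in WT replicates 1 to 4 and 3.98, 4.52, 4.18 and 8.76 CPM in Ptch1cKO replicates 1 to 4. WT replicate 3 and Ptch1cKO replicate 4 were each about as high as the other, and the remaining 6 libraries lay between 2.36 and 4.71 CPM. For Wnt7a the log2 fold change was 0.13 (SE 0.42, edgeR adjusted p = 0.965), and it turned to -0.21 without Ptch1cKO replicate 4 and to -0.10 without WT replicate 2. It moved to 0.58 without WT replicate 3. The 95% interval of the ratio, 0.594 to 2.03, leaves room for a change of either sign.

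Wnt7b had 3.36, 2.67, 6.57 and 3.91 CPM in WT and 5.54, 5.91, 4.92 and 4.96 CPM in Ptch1cKO, replicates 1 to 4. The 4 Ptch1cKO libraries were above 3 of the WT libraries and below WT replicate 3. For Wnt7b the log2 fold change was 0.36 (SE 0.35, edgeR adjusted p = 0.804), and without WT replicate 3 it was 0.69. Both ligand counts were low, between 15 and 62 reads a library. Wnt7a lies on chromosome 6 at 91363981 to 91411363 and Wnt7b on chromosome 15 at 85535437 to 85582473, both on the minus strand. An exon of Wnt7b overlaps opposite-strand AU022754, and no source used here gives the strand setting of the counting. Over 19 Wnt genes, of which 6 to 12 were listed at 0 in a library, Wnt7a and Wnt7b held 25.9 to 45.3% of the summed TPM in WT and 34.2 to 62.3% in Ptch1cKO.

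**Figure D4:**
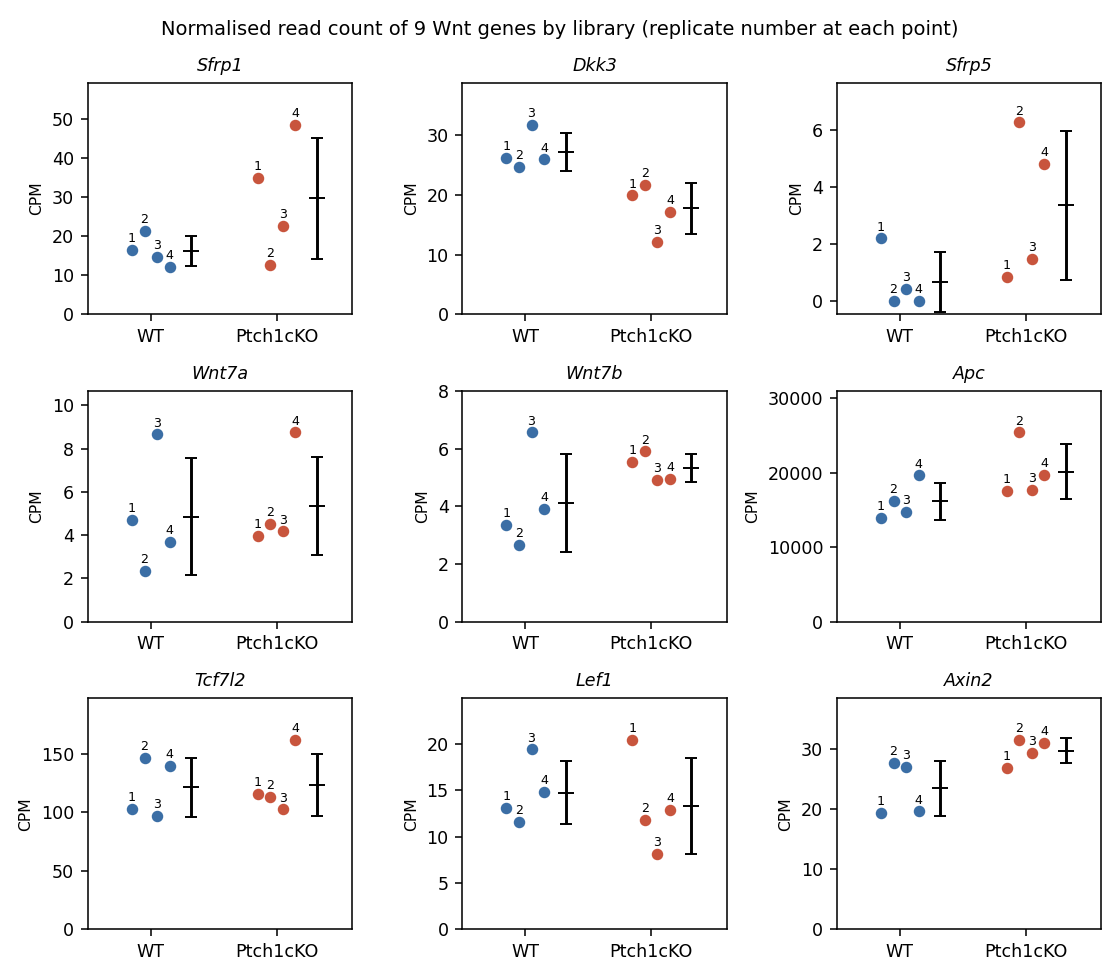
CPM of 9 of the genes by library, with the replicate number at each point and the mean ± SD of each group of 4 beside the points. The groups are apart for Dkk3 alone, and each of the other panels has at least 1 library inside the range of the other group.

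Apc, the scaffold of the destruction complex and a regulator of microtubules, was counted 72160 to 146431 times a library, more than most genes of the table. It held 1.44 to 1.92% of all counts in WT libraries and 1.75 to 2.41% in Ptch1cKO libraries, and ranked between the second and the fourth row by counts. By TPM, which divides by transcript length, it ranked 19 to 45. Apc exceeded its partner Ctnnb1, which encodes beta-catenin, by 3.22 to 4.36 times in TPM, and its paralogue Apc2 by 214 to 701 times. Whether the reads are spread over the gene or sit in 1 stretch cannot be seen in counts per gene.

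Apc had 13935, 16240, 14781 and 19648 CPM in WT replicates 1 to 4 and 17524, 25443, 17750 and 19758 CPM in Ptch1cKO replicates 1 to 4. Ptch1cKO replicate 2 was the highest library, and WT replicate 4 lay within the Ptch1cKO range. For Apc the log2 fold change was 0.32 (SE 0.15, edgeR adjusted p = 0.531), and 0.19 without Ptch1cKO replicate 2. At this depth counting error is negligible, and the spread between libraries sets the error. Apc lies on chromosome 18 at 34220924 to 34322552, plus strand.

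Tcf7l2, the TCF and LEF factor with the highest mean level in TPM, had 103, 147, 96.7 and 140 CPM in WT replicates 1 to 4 and 116, 113, 103 and 162 CPM in Ptch1cKO replicates 1 to 4. Ptch1cKO replicate 4, WT replicate 2 and WT replicate 4 were the high libraries, and the genotypes overlapped. The log2 fold change was 0.02 (SE 0.18, edgeR adjusted p = 0.984), with a 95% interval of the ratio from 0.782 to 1.32. Tcf7l2 is also a known gene of newly formed oligodendrocytes. The same 3 libraries had the highest summed oligodendrocyte markers, at 11373, 14235 and 11645 TPM, against 7095 to 9135 TPM in the other 5. The 7 markers of precursors and newly formed oligodendrocytes summed highest in WT replicate 2 (793 TPM) and Ptch1cKO replicate 4 (696 TPM). Next came Ptch1cKO replicate 3, among the lowest for Tcf7l2, at 604 TPM, and then WT replicate 4 at 596 TPM. The match with the first list was noticed after the values were seen, and the part of either list in the Tcf7l2 values was not tested.

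Lef1, both a partner of beta-catenin and one of its targets, had 13.1, 11.6, 19.4 and 14.8 CPM in WT replicates 1 to 4 and 20.5, 11.8, 8.12 and 12.9 CPM in Ptch1cKO replicates 1 to 4. The highest and the lowest library were both Ptch1cKO. For Lef1 the log2 fold change was -0.14 (SE 0.29, edgeR adjusted p = 0.936), and it turned to 0.03 without WT replicate 3 or without Ptch1cKO replicate 3, while without Ptch1cKO replicate 1 it was -0.42. Lef1 lies on chromosome 3 at 131110471 to 131224356 and Tcf7l2 on chromosome 19 at 55741820 to 55933654, both on the plus strand. An exon of Lef1 overlaps opposite-strand Gm43352.

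Both factors also have start sites inside the gene, where shorter transcripts begin, and the count of a gene adds these to the full-length form. The RefSeq promoter table (GRCm38.p6) held 10 windows for 6 of the 10 genes. The 250 bases before each start were searched on both strands for CTTTG followed by 2 letters that are each A or T, the core of the site that TCF and LEF factors bind. A match was present in 2 of the 10 windows and in 14.8% of all 32851 windows of the table. Both matches lay before internal start sites, 1 in Lef1 and 1 in Tcf7l2, and neither window holds an annotated exon of the gene. The window of the feedback gene Axin2, shown for comparison, held no match. The sequences are given 5′ to 3′ on the plus strand, with matches in capitals.
Lef1, chr3:131156044-131156293: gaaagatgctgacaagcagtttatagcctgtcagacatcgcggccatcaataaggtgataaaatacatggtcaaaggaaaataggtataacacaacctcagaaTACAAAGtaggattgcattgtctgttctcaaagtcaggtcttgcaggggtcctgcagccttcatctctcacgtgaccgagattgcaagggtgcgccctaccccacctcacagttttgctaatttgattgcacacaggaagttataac
Tcf7l2, chr19:55895071-55895320: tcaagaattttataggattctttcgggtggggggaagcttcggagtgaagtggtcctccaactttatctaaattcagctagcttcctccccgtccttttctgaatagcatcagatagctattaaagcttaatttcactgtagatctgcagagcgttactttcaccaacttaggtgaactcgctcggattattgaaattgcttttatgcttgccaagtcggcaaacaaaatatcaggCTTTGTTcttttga
Axin2, chr11:108920099-108920348: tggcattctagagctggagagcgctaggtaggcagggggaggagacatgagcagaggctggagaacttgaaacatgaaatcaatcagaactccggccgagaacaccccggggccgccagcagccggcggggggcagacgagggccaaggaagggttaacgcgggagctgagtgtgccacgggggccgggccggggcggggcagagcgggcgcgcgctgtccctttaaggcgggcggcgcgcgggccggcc
The Lef1 match begins 147 bases before the start site and reads TACAAAG, which is CTTTGTA on the minus strand. The Tcf7l2 match, CTTTGTT, begins 14 bases before the start site. These are matches of letters and not measured binding sites.

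Axin2, the feedback gene most often read as a measure of Wnt signalling, had 19.3, 27.7, 27.0 and 19.6 CPM in WT replicates 1 to 4. In Ptch1cKO replicates 1 to 4 it had 26.8, 31.4, 29.3 and 30.9 CPM. The WT libraries fell into a low pair, replicates 1 and 4, and a pair at the lower edge of the Ptch1cKO range, replicates 2 and 3. Mean CPM was 23.4 ± 4.55 in WT against 29.6 ± 2.07 in the mutant (SD, n = 4). The log2 fold change of 0.34 (SE 0.20) did not pass (edgeR adjusted p = 0.638), and the 95% interval of the ratio ran from 0.944 to 1.69. WT replicates 2 and 3 are the libraries with Xist counts, and among the other 6 libraries the log2 fold change was 0.61 (edgeR adjusted p = 0.554). Axin2 lies on chromosome 11 at 108920349 to 108950783, plus strand, where an exon overlaps opposite-strand Gm11670.

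The rest of the pathway was described from 8 lists of 97 other genes, of which 96 had a row and 51 were tested. By edgeR 0 of the 51 were called higher or lower over all genes. Their fold changes were positive in 24 and negative in 27, and the median was -0.0020. Before adjustment 7 of the 51 had a p under 0.05, against 9.34% of all genes, and in 5 the groups did not overlap, against 5.02% of all genes. DESeq2 called 1 of these genes, the co-receptor Lrp6.

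Among 11 tested receptors, 5 fold changes were positive and 6 negative. Lrp6 had 145, 195, 164 and 187 CPM in WT replicates 1 to 4 and 122, 122, 118 and 121 CPM in Ptch1cKO replicates 1 to 4. The highest Ptch1cKO value was below the lowest WT value, and the 4 Ptch1cKO values lay close together. The log2 fold change was -0.51 (SE 0.13, edgeR adjusted p = 0.232). DESeq2 called it (DESeq2 adjusted p = 0.0349), and adjusted p-values of the other alternatives ran from 0.0956 to 0.540. The receptor Fzd3 had 82.0 to 100 CPM in WT and 59.0 to 72.4 CPM in Ptch1cKO, a log2 difference of -0.44 (SE 0.14, edgeR adjusted p = 0.349). Ryk, a receptor with a kinase-like domain and the one with the highest mean at 54.7 TPM, had -0.14 (SE 0.15).

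Of the antagonists listed outside the 10 genes, Apcdd1 alone had enough counts to test. It encodes a membrane-bound inhibitor that is itself induced by Wnt signalling, and had 5.73 to 7.62 CPM in WT and 9.75 to 12.1 CPM in Ptch1cKO. The groups did not overlap, and the log2 fold change of 0.67 (SE 0.25) did not pass (edgeR adjusted p = 0.426). Of 6 tested feedback and target genes, 3 had positive and 3 negative fold changes. The cyclin Ccnd1 had 85.4 to 94.1 CPM in WT and 108 to 117 CPM in Ptch1cKO, at 0.32 (SE 0.13, edgeR adjusted p = 0.460). The other 6 genes of that list stayed below the count filter.

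In the destruction complex and its relay, 7 of 14 tested genes had positive and 7 negative fold changes, with a median of 0.01. Ctnnb1, the most abundant of them at 998 TPM, had a mean of 1252 ± 148 CPM in WT against 1471 ± 244 CPM in the mutant (SD, n = 4), and the casein kinase Csnk1e had a log2 fold change of 0.38 (SE 0.16, edgeR adjusted p = 0.477). Of 9 tested nuclear effectors, 4 were positive and 5 negative. Pygo2, a co-factor of beta-catenin, had 0.673 to 1.82 CPM in WT and 1.99 to 2.78 CPM in Ptch1cKO. These values came from 4 to 16 reads a library, and the log2 fold change of 1.02 (SE 0.47) did not pass (edgeR adjusted p = 0.524). Of the WT libraries only replicate 3 had at least 10 reads, so Pygo2 passed the count filter only through Ptch1cKO, where it is higher. It is still counted above among the genes with an unadjusted p under 0.05 and those with groups apart. The co-repressor Tle4 had a log2 fold change of -0.24 (SE 0.14). Among 5 tested genes of the R-spondin axis, whose ligands protect Frizzled receptors from removal, Rspo3 had 4.87 to 26.4 CPM in WT and 3.55 to 6.61 CPM in Ptch1cKO. Its log2 fold change of -1.23 (SE 0.48, edgeR adjusted p = 0.446) was -0.38 without WT replicate 3. Lgr4, the R-spondin receptor with the highest level of that list at 25.7 TPM, had -0.40 (SE 0.30), and -0.07 without WT replicate 3. Of 3 tested genes of Wnt secretion the acyltransferase Porcn was highest at 62.8 TPM, with a log2 fold change of 0.06 (SE 0.30) that was 0.89 in the 6 libraries with under 10 Xist counts (edgeR adjusted p = 0.377). Of 3 other ligands tested, Wnt4 was highest at 3.78 TPM, with 0.43 (SE 0.58), which was 1.19 without WT replicate 3 and 0.04 without Ptch1cKO replicate 3.

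**Figure D5:**
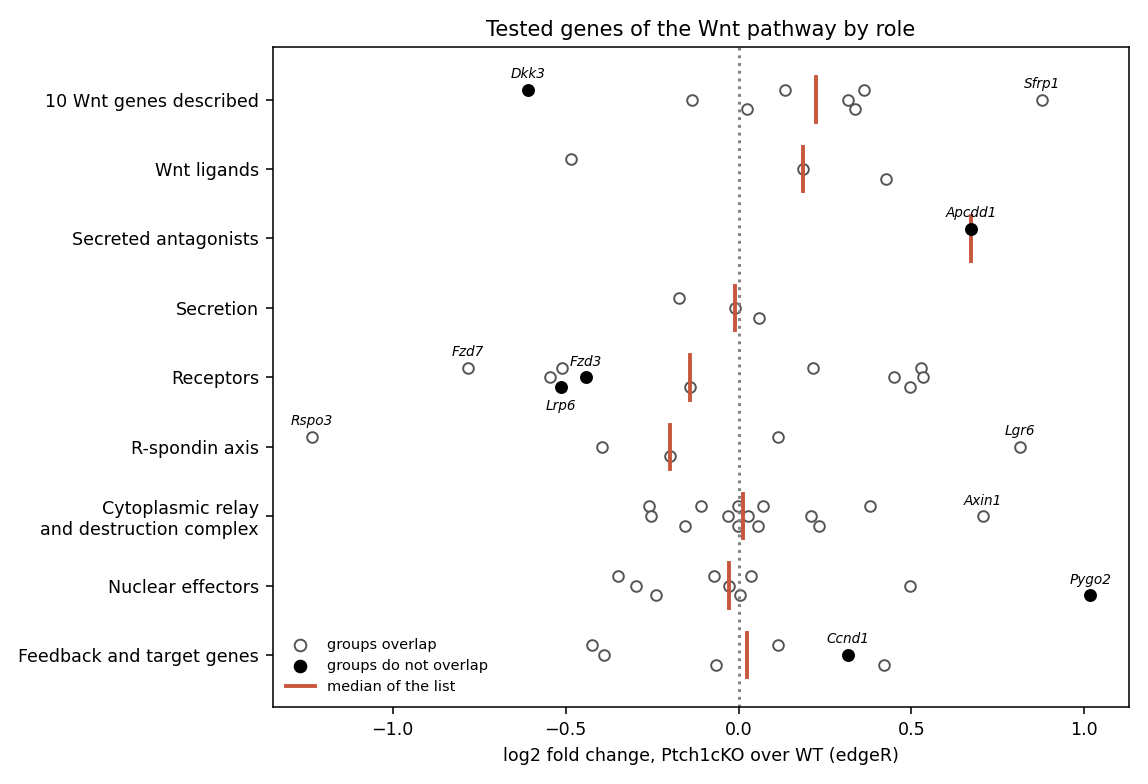
Log2 fold changes of Ptch1cKO over WT (x axis) for the tested members of the 10 genes and of the 8 pathway lists, with 1 point per gene. Filled points are genes whose groups do not overlap, names mark these and the outermost genes, red lines are medians, and the points of most lists lie on both sides of 0.

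The genes whose log2 CPM followed Apc most closely over the 8 libraries, out of 6755 with a mean of at least 10 CPM, were Tmod2, Ube2g1 and Evi5, with Pearson r of 0.97, 0.96 and 0.95. These r are descriptions of 8 libraries that share their scaling, 18 genes had an r over 0.9 with Apc, and no test was made.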

How the data were processed

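The 10 genes and the lists were chosen with earlier results of these data known. Libraries were made from low-input cDNA by exome capture, per the labels' protocols. The submitters' processing notes name bcl2fastq 2.18, STAR 2.5 and the build mm10, and no source used here gives the counting program, annotation or strand setting. The authors deposited whole-number counts per gene symbol and TPM, both with 1 column per library.

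From the counts, edgeR 4.0.16 (R 4.3.3) gave fold changes and p-values, with filterByExpr (minimum count 10), TMM scaling, and the robust quasi-likelihood F test with the group as the only term in 8 libraries, adjusted by Benjamini-Hochberg over 10954 genes at 0.05. The SE is the log2 fold change divided by the square root of F, and 95% intervals use the t distribution of the fit. Alternatives used other scalings and filters, DESeq2 1.42.0 and limma 3.58.1 on log2(TPM + 0.1) and log2(TPM + 1). The test was checked on simulated data with known changes. No pair of libraries of 1 group agreed within sampling noise (chi-square of at least 11.6 per degree of freedom). Gene positions are from GENCODE M21 (GRCm38, the assembly of mm10). Beside the 10 genes and Ptch1, genes were named by rule: in each list the one with the highest mean TPM and those with an unadjusted p under 0.05, and the 3 genes most correlated with the gene of smallest p and with the gene of highest TPM. The list of correlated genes for the gene of smallest p is not reported here. Progenitor markers summed to 13.3 to 125 TPM in WT and 13.0 to 27.1 TPM in Ptch1cKO, those of oligodendrocyte precursors to 448 to 793 and 508 to 696 TPM, and of mural cells and fibroblasts to 18.0 to 42.9 and 16.7 to 32.6 TPM.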

Additional observations from a re-analysis of the deposited data

Results flagged for a closer look

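In 48 groups of 4 libraries, from the 10 genes and the other named genes, 3 had a library far from the others by Dixon's test, where chance gives about 1 in 20. Wnt7a had 8.76 CPM in Ptch1cKO replicate 4 against 3.98 to 4.52 CPM in the other 3 libraries of that group. In WT replicate 3, Wnt4 had 10.2 CPM against 2.04 to 3.29 CPM, and Rspo3 had 26.4 CPM against 4.87 to 8.23 CPM. WT replicate 3 was also the deepest library, with 7206462 counts, and had the lowest summed markers of microglia (201 TPM) and of precursors and newly formed oligodendrocytes (448 TPM) and the highest of astrocytes (18950 TPM) and endothelial cells (40.7 TPM). The part of these in the values was not tested.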

How the results depend on the processing

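The number of genes called over the whole table, 11 in all, was 199 without a count filter (104 higher, 95 lower), 6 with a filter at a mean of 1 CPM, 76 with DESeq2 (45 higher, 31 lower, against 9 and 2), 2 (1 higher, 1 lower) with limma on log2(TPM + 0.1) and again 2 on log2(TPM + 1), and 3 (1 higher, 2 lower) in the 6 libraries with under 10 Xist counts. Leaving out single libraries it ran from 1 to 19: 2 without WT replicate 1, 1 without each other WT replicate, and 6, 19, 4 and 2 without Ptch1cKO replicates 1 to 4. The cause was not tested. Of the 10 genes 2 were called without a filter (Sfrp1 and Sfrp5) and 0 in each other setting. Of the other pathway genes 1 was called without a filter (Rspo3, edgeR adjusted p = 0.0392) and 1 with DESeq2 (Lrp6). Calls made without a filter hardly weigh a gene's own spread between libraries. Of the 8 tested genes, 5 (Sfrp1, Dkk3, Wnt7b, Apc and Axin2) kept their direction in each of 17 alternatives. Leaving out single libraries, Wnt7a ran from -0.21 to 0.58, Tcf7l2 from -0.13 to 0.13, Lef1 from -0.423 to 0.0335 and Porcn from -0.17 to 0.38 on the log2 scale. On both TPM scales Tcf7l2 was negative (-0.0936 and -0.0924), where the median of all genes shifted to -0.11 and -0.10. By the numbers in the titles, same-numbered libraries did not deviate together (r of 0.02, -0.17, -0.10 and -0.03 for numbers 1 to 4), no library correlated best with its own number, and the replicate block left 5 genes called and none of the 8. The descriptions number the mutants 1, 2, 4 and 5, which would pair WT replicate 4 with Ptch1cKO replicate 3 (r of -0.09), and a block by those numbers was not run. Wif1 and Sfrp5 did not pass the count filter. Depth limits Wif1, which had at most 2 reads in a library. Sfrp5 had up to 36 reads, but these lay mostly in WT replicate 1 and Ptch1cKO replicates 2 and 4, too few libraries for the filter.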
